A study of Mus musculus with 6 samples.

Results

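The genes described here are Bcas2 and 9 other genes that encode subunits of the PRP19 complex or of the group of proteins that joins the spliceosome with it: Prpf19, Cdc5l, Plrg1, Cwc15, Ctnnbl1, Snw1, Xab2, Aqr and Syf2. They were taken by gene name from a table of 33385 mouse genes, and all 10 were found and tested. The table holds 6 hippocampal RNA sequencing libraries from Bcas2F/F mice, in which Cre recombinase can delete the floxed part of Bcas2. The knockdown group (3 libraries) came from mice injected with AAV2/9-Syn-cre, an adeno-associated virus in which the neuronal synapsin promoter drives Cre. The control group (3 libraries) came from Bcas2F/F mice injected with AAV-vehicle. The labels call the controls WT, although they carry the same floxed alleles. They give no age, sex, interval after injection or number of animals per library, so p-values reflect variation among libraries that may be technical. The series title names BDNF/TrkB signalling and adult hippocampal neurogenesis in a setting of Alzheimer's disease, so the comparison asks whether the targeted transcript and those of its partners differed between mice given the Cre virus and mice given the vehicle virus. Cre and recombination were not analysed here.

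The PRP19 complex joins the spliceosome as it becomes active and stays while the intron is removed. PRPF19 is its ubiquitin ligase and scaffold, CDC5L and PLRG1 form the core with it, and BCAS2 binds within that core. The complex keeps the small nuclear RNAs in their active arrangement, and it also acts at damaged DNA, where it binds the single-strand DNA protein RPA. Every nucleated cell uses it, so its transcripts are found in neurons and glia alike.

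Bcas2 lies on chromosome 3 of GRCm39 from 103078971 to 103086468 on the plus strand, and Plrg1 is on the same chromosome from 82962829 to 82979662. The 10 genes are spread over 8 chromosomes and span 6651 bases (Syf2) to 154214 bases (Ctnnbl1). The table annotates all 10 to the KEGG spliceosome, a term that 172 of its genes carry. Its Gene Ontology term for the Prp19 complex is carried by 8 of the 10, Snw1 and Aqr being the exceptions, and by 21 genes in all. Retained-intron transcripts are annotated for 8 of the 10, against 26.3% of all 33385 genes in the table. Those include genes too low to test and were not matched to the members in level or number of transcripts. Transcripts subject to nonsense-mediated decay are annotated for Bcas2, Plrg1 and Xab2. A gene's value sums all of its transcripts, so the forms cannot be told apart here.

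RefSeq start-site windows of build GRCm38.p6 were matched for 9 members, with 2 windows for Prpf19. Of the members that the table assigns to the complex, Cwc15 had the most negative log2 fold change (-0.12, not called, with overlapping groups). Aqr, which the table does not assign to it, was at -0.13. The 250 bases before the start are shown for Bcas2, as the targeted gene, and for Cwc15. No measurement in the table bears on these regions themselves. Both are given 5′ to 3′ on the plus strand, at chr3:103171405-103171654 and chr9:14500369-14500618. Capitals mark matches on either strand to the 5 motifs named after them.
Bcas2: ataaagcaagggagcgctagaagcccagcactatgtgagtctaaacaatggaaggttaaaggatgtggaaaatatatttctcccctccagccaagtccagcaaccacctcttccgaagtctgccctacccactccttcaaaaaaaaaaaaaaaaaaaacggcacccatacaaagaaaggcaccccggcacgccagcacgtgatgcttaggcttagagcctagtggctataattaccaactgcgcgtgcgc
Cwc15: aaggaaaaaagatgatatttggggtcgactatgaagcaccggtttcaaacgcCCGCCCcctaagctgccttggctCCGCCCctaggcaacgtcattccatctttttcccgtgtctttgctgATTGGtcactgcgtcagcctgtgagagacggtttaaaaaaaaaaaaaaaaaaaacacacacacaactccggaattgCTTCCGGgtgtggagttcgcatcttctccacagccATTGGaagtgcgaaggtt
The Bcas2 window held 0 matches and the Cwc15 window 5, of 3 kinds. Of the 10 member windows, 7 held the letters CCAAT, against 33.85% of 32851 such windows in the RefSeq table. The GC box, spelled GGGCGG, was in 5 of the 10, against 32.74% of all windows. The core letters of ETS factors, CCGGAAG, were in 5 of the 10, against 6.91% of all windows. The cAMP response element, TGACGTCA, was in 2 of the 10, against 1.55%, and the element TATAAA in 0, against 12.37%. No match of different motifs overlapped in these windows. The ratio of observed to expected CpG was above the median of all windows (0.37) in 9 of the 10. These matches describe the letters only.

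Each library held 55914768 to 76481458 deposited counts, and the 10 members had 1540 to 13150 counts in a library. Counts of 4 and 8 are in excess in every library, so a count may be larger than the number of read pairs behind it. Markers of hippocampal neurons and of all neurons were present in every library. The summed level of 9 neuronal markers was 1280 to 1345 FPKM (fragments per kilobase, scaled to library depth) in the knockdown group and 1229 to 1341 FPKM in the control group. Some other marker sums moved with the groups or with 1 library. The sum over 3 endothelial markers did not, at 22.6 to 29.3 FPKM in the knockdown group and 26.7 to 30.8 FPKM in the control group. Nor did that over 3 meningeal markers, at 6.15 to 13.9 FPKM and 5.17 to 13.5 FPKM. The 6 oligodendrocyte markers were all lower on average after Cre, with sums of 483 to 542 FPKM in the knockdown group and 653 to 1028 FPKM in the control group. The astrocyte sum over 5 markers was 126 to 142 FPKM in the knockdown group and 155 to 182 FPKM in the control group, with 4 of the 5 markers lower on average. The microglia sum over 5 markers was 62.0 to 67.4 FPKM in the knockdown group and 54.7 to 61.3 FPKM in the control group, although only 2 of the 5 markers were higher on average. The choroid plexus sum over 6 markers was 3.06 to 15.2 FPKM in the knockdown libraries, 14.7 and 14.9 FPKM in control replicates 1 and 2, and 4284 FPKM in control replicate 3. Among the choroid plexus markers only Slc4a5 was at 0 in any library. The part of these differences in the members' values was not tested beyond the fits without control replicate 3. In bulk tissue, fewer cells of a type and less RNA per cell cannot be told apart.

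Bcas2, whose product stabilises the core of the complex, was slightly lower in the knockdown libraries, and no model called the difference. The value is for the whole gene, and the floxed part was not measured apart, so it does not measure how much of Bcas2 was deleted. Bcas2 was at 9.08, 9.17 and 8.87 FPKM in knockdown replicates 1, 2 and 3, against 9.87, 9.71 and 9.44 FPKM in control replicates 1, 2 and 3. Every knockdown library was below every control library, as was the case for 7.5% of all 20946 tested genes. In CPM, counts scaled to library depth, after TMM normalization (trimmed mean of M-values), the values were 43.0, 43.9 and 42.4 in the knockdown libraries, against 46.6, 45.5 and 44.1 in the controls, and the gap between the groups was 0.363% of the control mean. Knockdown replicate 2 and control replicate 3 are the libraries on either side of that gap. The edgeR fold change of Bcas2 was -0.07 on the log2 scale (SE 0.0649, adjusted p = 0.861), with a 95% interval from 85.5% to 106% of the control level. A two-sided exact permutation test on log2(FPKM + 1) returned p = 0.10, and no smaller p is possible with 3 against 3 libraries. Without control replicate 3, the library with the high choroid plexus sum, the Bcas2 value was -0.09. Control replicates 2 and 3 alone had counts for Y-linked genes, and no knockdown library did. Sex is not given in the labels, and the main fit does not allow for these counts. With these counts as a covariate, the group difference therefore rests on control replicate 1 as the only control, here and for the genes below. The Bcas2 value in that fit was -0.11.

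**Figure D1:**
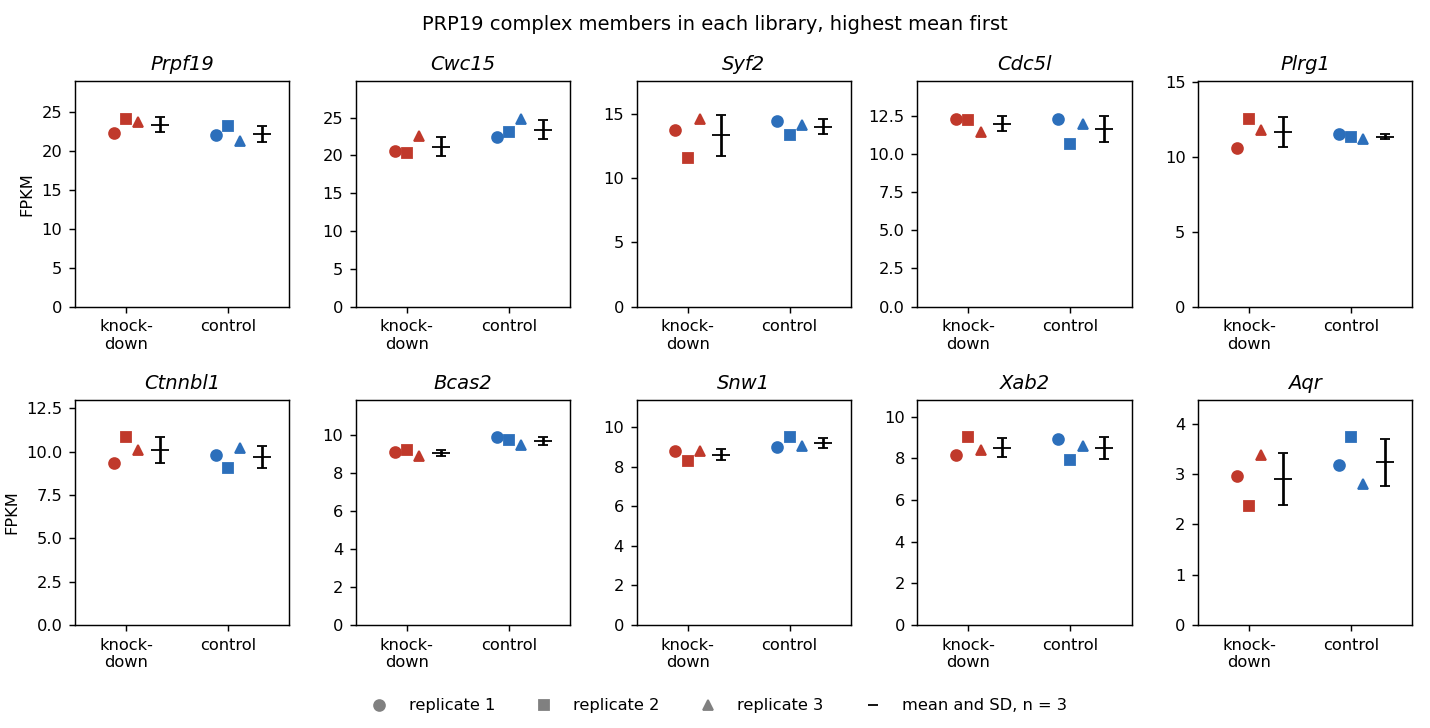
FPKM of each member in the 3 knockdown (red, left) and 3 control (blue, right) libraries, on axes that start at 0; the symbol gives the replicate and the black mark the mean with its SD (n = 3). Bcas2 and Snw1 are the 2 panels in which every knockdown library lies below every control library, as for 7.5% of all tested genes.

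The other core subunits did not differ between the groups beyond the spread of the libraries. Prpf19, the ubiquitin ligase, was at 22.23, 24.12 and 23.65 FPKM in the knockdown libraries, against 21.99, 23.22 and 21.25 FPKM in the controls. Its highest value was in knockdown replicate 2 and its lowest in control replicate 3, with the groups overlapping between. The edgeR log2 fold change of Prpf19 was 0.10 (SE 0.0662, adjusted p = 0.832), and its interval, 96.2% to 119% of the control level, includes that level. Plrg1, a WD-repeat protein that binds CDC5L, was at 10.6, 12.5 and 11.8 FPKM in the knockdown libraries, against 11.5, 11.3 and 11.2 FPKM in the controls. The 3 controls were close together and lay inside the range of the knockdown libraries. Its log2 fold change was 0.06 (SE 0.0888, adjusted p = 0.914 in edgeR), and leaving out knockdown replicate 2 gave -0.0041, while leaving out knockdown replicate 1 gave 0.13.

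Cdc5l, a Myb-like protein of the core, was at 12.32, 12.25 and 11.44 FPKM in the knockdown libraries, against 12.34, 10.66 and 11.98 FPKM in the controls. Control replicate 2 was the lowest library and the others overlapped, and edgeR put the log2 fold change at 0.06 (SE 0.0833, adjusted p = 0.904). The sign of the Cdc5l value was not stable: it was -0.03 with Y-linked counts as a covariate. The Cdc5l value was 0.0022 when control replicate 2 was left out, 0.11 without control replicate 1 and 0.04 without knockdown replicate 2. Cdc5l is uncertain in another way, since the table lists 10 retrotransposed copies of it (Cdc5lrt genes and pseudogenes), between which reads may be divided. The copies together had 501, 693 and 541 counts in the knockdown libraries, against 775, 727 and 483 counts in the controls, which is 17.96% to 26.4% of the Cdc5l count in the knockdown group and 19.5% to 32.2% in the control group. With the copies added, Cdc5l had 51.6, 55.2 and 50.2 CPM in the knockdown libraries, against 53.9, 49.8 and 51.0 CPM in the controls. The groups overlapped with the copies as without them. The term for the Prp19 complex in the table is also carried by 8 of these copies.

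The 2 other partners of the core went numerically opposite ways. Cwc15, a small protein that binds CTNNBL1 and the core, was at 20.5, 20.3 and 22.6 FPKM in the knockdown libraries, against 22.4, 23.0 and 24.9 FPKM in the controls. Knockdown replicate 3 was above control replicate 1, and the other knockdown libraries were below all controls. The Cwc15 log2 fold change was -0.12 (SE 0.0811, adjusted p = 0.829 in edgeR; exact permutation p = 0.20), with an interval from 80.4% to 105% of the control level. The Cwc15 value was -0.08 without control replicate 3 and -0.07 with the Y-linked covariate. Ctnnbl1, an armadillo-repeat protein that binds CDC5L, was at 9.32, 10.8 and 10.1 FPKM in the knockdown libraries, against 9.82, 9.03 and 10.2 FPKM in the controls. Its groups overlapped, and edgeR put the log2 fold change at 0.08 (SE 0.0970, adjusted p = 0.896). Without knockdown replicate 2 the Ctnnbl1 value was 0.02, without control replicate 2 it was 0.03, and without knockdown replicate 1 it was 0.13.

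Of the proteins that join with the complex, Snw1 showed a narrow gap between the groups and Xab2, Aqr and Syf2 did not. Snw1, known as SKIP and as a coactivator in Notch transcription, was at 8.80, 8.29 and 8.79 FPKM in the knockdown libraries, against 9.01, 9.50 and 9.07 FPKM in the controls. Every knockdown library was below every control library, as was the case for 7.5% of all tested genes. In TMM-normalised CPM the gap was 0.9% of the control mean. The Snw1 log2 fold change was -0.07 (SE 0.0619, adjusted p = 0.865 in edgeR; exact permutation p = 0.10), with an interval from 86.2% to 105% of the control level. Snw1 overlaps Slirp on the opposite strand over 3132 bases, and Slirp averaged 1.36 FPKM; the strand setting of the counting is not given in the sources used here.

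Xab2, a helical-repeat protein that also acts in transcription-coupled DNA repair, was at 8.15, 9.02 and 8.37 FPKM in the knockdown libraries, against 8.94, 7.92 and 8.58 FPKM in the controls. The groups overlapped and the log2 fold change was 0.03 (SE 0.0820, adjusted p = 0.957 in edgeR), with a sign that turned in 4 of 16 alternative settings. The Xab2 value was -0.0215 when knockdown replicate 2 was left out and -0.0193 when control replicate 2 was. It was 0.06 in the fit lacking knockdown replicate 1 and 0.07 in that lacking control replicate 1. Xab2 shares 655 bases with Camsap3 and 327 bases with Gm56004, both on the opposite strand. Cdc5l likewise shares 140 bases with B230354K17Rik, and the other 7 members overlap no gene of the table.

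Aqr and Syf2 varied most between libraries. Aqr, the intron-binding helicase aquarius, was at 2.97, 2.36 and 3.38 FPKM in the knockdown libraries, against 3.17, 3.73 and 2.79 FPKM in the controls. Its lowest library was knockdown replicate 2 and its highest control replicate 2, with the groups overlapping. The Aqr log2 fold change was -0.13 (SE 0.155, adjusted p = 0.893 in edgeR), and its interval, 71.0% to 117% of the control level, was the widest of the 10. It was -0.01 without knockdown replicate 2, -0.02 without control replicate 2, -0.23 without control replicate 3 and -0.26 without knockdown replicate 3. Syf2, a small subunit that binds the active spliceosome, was at 13.8, 11.6 and 14.7 FPKM in the knockdown libraries, against 14.5, 13.4 and 14.2 FPKM in the controls. Knockdown replicate 2 was again the lowest, and without it the Syf2 fold change was 0.04, against -0.05 with all libraries (SE 0.106, adjusted p = 0.945 in edgeR). The Syf2 value was -0.12 without knockdown replicate 3, -0.08 without control replicate 2 and -0.02 without control replicate 1.

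**Figure D2:**
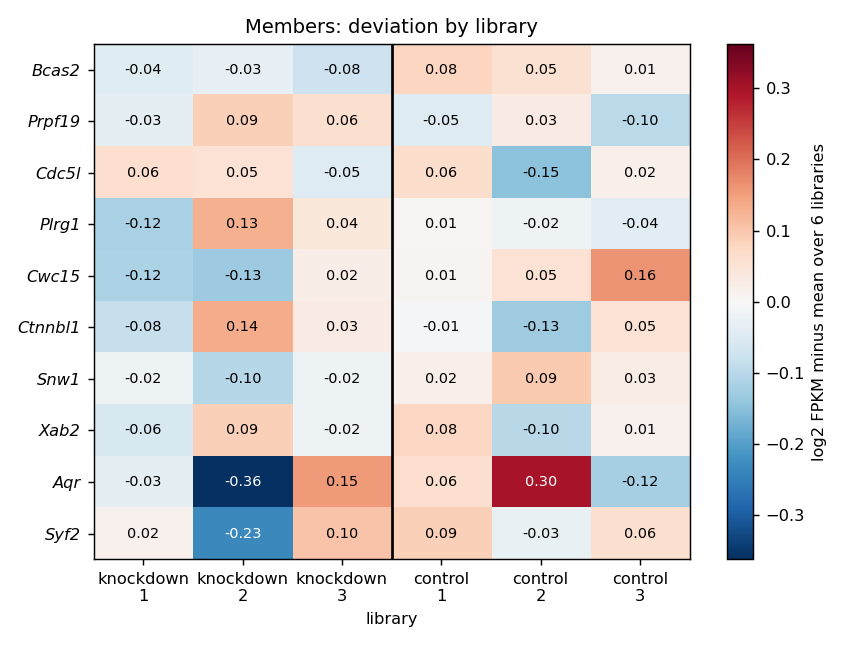
Log2 FPKM of each member in each library minus its mean over the 6 libraries (knockdown left of the line, control right; red above the mean, blue below). In knockdown replicate 2, Aqr is at -0.36 and Syf2 at -0.23 while Ctnnbl1 and Plrg1 are at 0.14 and 0.13.

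Knockdown replicate 2 was at the end of the range for 8 members. It had the highest Prpf19, Plrg1, Ctnnbl1 and Xab2 of the 6 libraries and the lowest Aqr, Syf2, Snw1 and Cwc15. Control replicate 2 had the lowest Cdc5l, Ctnnbl1 and Xab2 and the highest Snw1 and Aqr. The share of all genes for which each library is at the end of the range was not computed, so this trait cannot be called particular to the members. The summed level of the 10 members was nonetheless close in all libraries, at 118, 120 and 124 FPKM in the knockdown libraries, against 124, 122 and 124 FPKM in the controls. Bcas2 took 7.71%, 7.61% and 7.18% of that sum in the knockdown libraries, against 7.99%, 7.99% and 7.64% in the controls, so knockdown replicate 1 was above control replicate 3 on this measure. The log2 ratio of Bcas2 to the mean of the other 9 was -0.22, -0.21 and -0.33 in the knockdown libraries, against -0.17, -0.17 and -0.21 in the controls. Set against its partners in the same library, Bcas2 thus overlapped between the groups, through knockdown replicate 2 and control replicate 3. For all 10 members this ratio overlapped between the groups.

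Across the 10 members, 0 passed an adjusted p under 0.05 in edgeR, where the share called over all 20946 tested genes was also 0 (0%). DESeq2 called 0 of the 10 as well, against 0.486% of the genes it gave an adjusted p. At an unadjusted edgeR p under 0.05 the count was 0 of 10, against 6.19% of all genes. FPKM groups did not overlap for Bcas2 and Snw1, both lower, which is 2 of 10 members, against 7.5% of all genes lower and 5.47% higher, and 13% in either direction. The fold changes were above 0 for 5 members and below 0 for 5, against 50.1% of all genes below 0. The members' median was -0.01, against 0.00 over all genes, and the values ran from -0.13 (Aqr) to 0.10 (Prpf19). Taken over all 10, the 95% intervals lay between 71.0% and 124% of the control level.

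**Figure D3:**
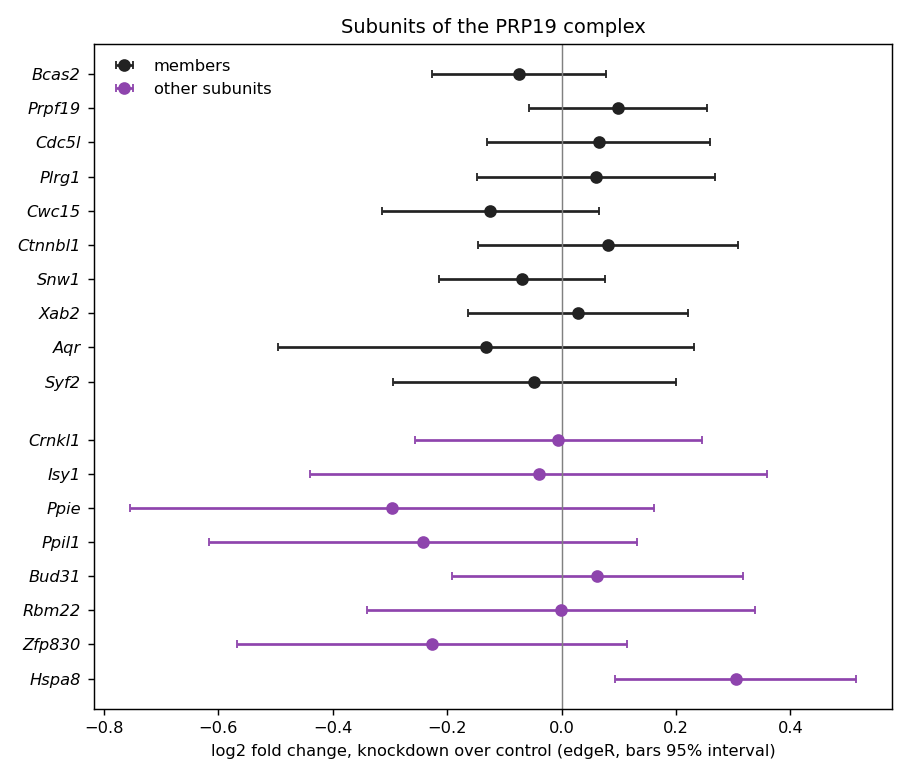
Log2 fold change, knockdown over control, of the 10 members (black) and of 8 other subunits (purple) from edgeR, with bars for the 95% interval. The intervals of all 10 members include 0, and Hspa8 at 0.30 is the only one of the 18 whose interval does not. The intervals are not adjusted for the number of genes, and 6.19% of all tested genes had an unadjusted edgeR p under 0.05.

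In deposited FPKM, the members differed far more from each other than between the groups. FPKM is scaled by a length for each gene that is not given in the sources used here, so the order describes the deposited values only. In knockdown replicate 1, Prpf19 and Cwc15 were at 22.23 and 20.5 FPKM, but at 174.5 and 34.79 CPM after TMM normalization. The mean over 6 libraries was 22.7 ± 1.09 FPKM for Prpf19 and 3.07 ± 0.475 FPKM for Aqr (SD, n = 6 each), a 7.42-fold range. The order from high to low was Prpf19, Cwc15, Syf2, Cdc5l, Plrg1, Ctnnbl1, Bcas2, Snw1, Xab2 and Aqr. The lowest Cwc15 library (20.3 FPKM) was above the highest Syf2 library (14.7 FPKM), and the lowest Xab2 library (7.92 FPKM) above the highest Aqr library (3.73 FPKM). All other neighbours in the order overlapped. Cdc5l exceeded Plrg1 in 3 of 6 libraries and Prpf19 exceeded Cwc15 in 4 of 6, while Bcas2 exceeded Snw1 in all 6.

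Bcas2 was among the steadier genes of the table. The SD of its log2(FPKM + 1) over the 6 libraries was 0.0538, against a median of 0.124 over the 13682 tested genes that averaged 1 FPKM or more, and 93.4% of those genes had a larger SD. Snw1 followed at 0.0586, where 91.2% had a larger SD, and then Xab2 (87.2%) and Prpf19 (86.7%). The genes compared were not matched to the members for level. Aqr, at 0.171, was the only member above that median. The 5 genes whose centred profile of log2(FPKM + 1) was nearest to that of Bcas2 over the 6 libraries, among 12232 candidates, were Naa25, Paip2, Mfsd12, Tmem106b and Cog8. They were chosen for nearness in these same libraries, so their lower knockdown values follow from that choice. Shared regulation was not tested. Naa25, a subunit of the NatB acetyltransferase, differed from Bcas2 by a root mean square of 0.016, and was at 5.71, 5.65 and 5.64 FPKM in the knockdown libraries, against 6.24, 6.11 and 5.80 FPKM in the controls. Paip2, which binds poly(A)-binding protein, differed by 0.0169 and Cog8, a subunit of the Golgi tethering complex, by 0.0204. Among the members, Snw1 was nearest to Bcas2 at 0.0447, where it would rank 292 among the candidates, and Aqr farthest at 0.15.

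**Figure D4:**
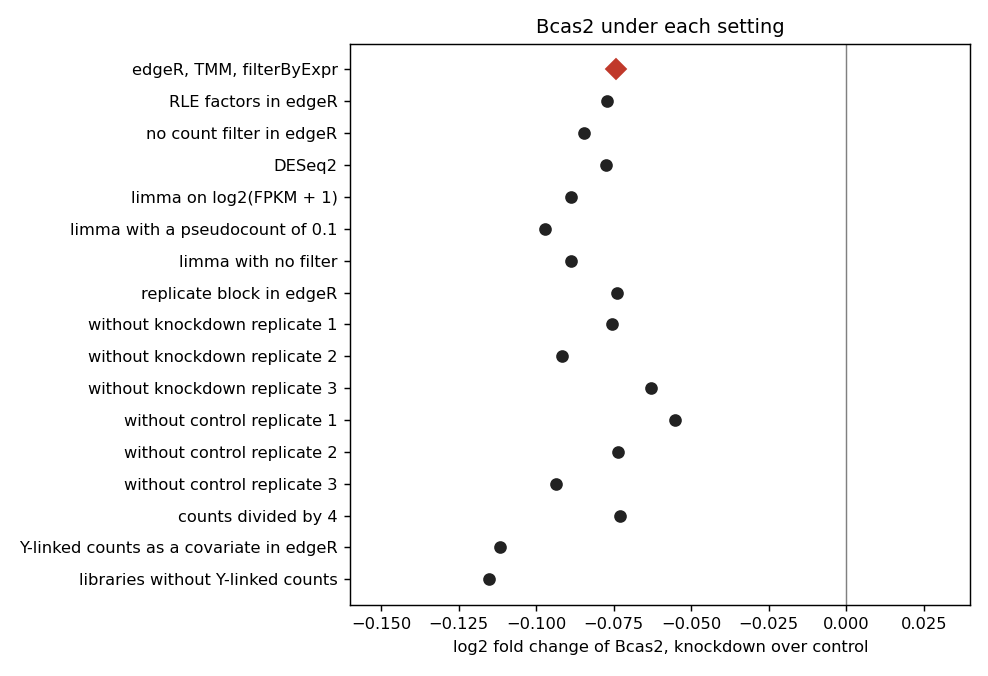
Log2 fold change of Bcas2, knockdown over control, in the edgeR test reported here (red diamond) and in 16 other settings (black). All lie below 0, from -0.12 in the libraries without Y-linked counts to -0.06 without control replicate 1.

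Of the other 8 subunits, 0 were called, where edgeR called 0% of all genes and DESeq2 0.486%. Their list was written from textbook knowledge, but with earlier results of these data known. Of these 8, 2 had a fold change above 0 and 6 below, and their median was -0.02. Hspa8, the constitutive HSP70 chaperone found with the complex, was at 289, 237 and 289 FPKM in the knockdown libraries, against 225, 225 and 222 FPKM in the controls. Every knockdown library was above every control library. Its log2 fold change was 0.30 (SE 0.0900, unadjusted p = 0.0109, adjusted p = 0.792 in edgeR), and the DESeq2 adjusted p was 0.157. Hspa8 was thus 1 of 8 with an unadjusted edgeR p under 0.05, against 6.19% of all tested genes. Zfp830 was at 4.74, 4.98 and 4.78 FPKM in the knockdown libraries, against 6.35, 5.83 and 5.04 FPKM in the controls, and edgeR put its log2 fold change at -0.23 (SE 0.146, adjusted p = 0.829). Every knockdown library was below every control library in Zfp830. Of the 8, 1 was thus higher and 1 lower without overlap, against 5.47% and 7.5% of all tested genes. Its value was -0.14 without control replicate 1 and -0.38 with the Y-linked covariate. The cyclophilins Ppie and Ppil1 had values of -0.30 and -0.24, with overlapping groups. Crnkl1, a helical-repeat subunit, was at -0.01 and Isy1 at -0.04.

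Of the 42 genes in 4 lists that act with the complex, 0 were called, again beside 0% of all genes in edgeR and 0.486% in DESeq2. Among 17 helicases and step factors of the spliceosome, 7 had values above 0 and 10 below, with a median of -0.02. The helicase gene Dhx16 was at 5.73, 5.58 and 5.17 FPKM in the knockdown libraries, against 6.54, 5.85 and 6.79 FPKM in the controls (log2 fold change -0.19, edgeR adjusted p = 0.798). Its cofactor gene Gpkow was at 9.83, 9.79 and 9.75 FPKM in the knockdown libraries, against 10.9, 10.9 and 10.4 FPKM in the controls (log2 fold change -0.11, edgeR adjusted p = 0.820). Both had every knockdown library below every control library, as 2 of the 17, against 7.5% of all tested genes.

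Of 9 genes of the U4/U6.U5 particle and its deubiquitination, on which PRPF19 acts, 4 had values above 0 and 5 below (median 0.00). Prpf6, a U5 particle protein, was at 15.15, 15.82 and 15.96 FPKM in the knockdown libraries, against 14.27, 14.49 and 15.03 FPKM in the controls (log2 fold change 0.12, edgeR adjusted p = 0.798). The deubiquitinase gene Usp4 was at 10.03, 9.81 and 10.03 FPKM in the knockdown libraries, against 8.76, 9.76 and 9.57 FPKM in the controls (0.11, edgeR adjusted p = 0.807). The Usp4 value was 0.07 without control replicate 1 and 0.20 with the Y-linked covariate. In both genes the groups did not overlap, as in Snrnp200, so that 3 of the 9 were higher without overlap, against 5.47% of all tested genes. The 5 exon junction genes had a median of -0.08, with Casc3 at 0.11 and the helicase gene Eif4a3 at -0.11 on the log2 scale. Eif4a3 was lower without overlap, as 1 of the 5, against 7.5% of all tested genes. Casc3 was at 0.07 without knockdown replicate 2, and Eif4a3 at -0.05 without control replicate 3 and -0.16 without control replicate 2.

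Among 11 genes of DNA repair and p53 that link to the complex, 7 had values above 0 and 4 below (median 0.03). Atrip, the partner of the ATR kinase, was at 4.08, 4.49 and 4.15 FPKM in the knockdown libraries, against 3.998, 3.843 and 3.692 FPKM in the controls (log2 fold change 0.17, edgeR adjusted p = 0.798). With the Y-linked covariate the Atrip value was 0.10. Mdm2, the ubiquitin ligase for p53, was at 7.32, 7.48 and 7.35 FPKM in the knockdown libraries, against 8.75, 7.50 and 10.2 FPKM in the controls (-0.23, edgeR adjusted p = 0.798). Knockdown replicate 2 and control replicate 2 differed little in Mdm2, so the gap between its groups was narrow. Of the 11, 2 were lower without overlap (Mdm2 and Atr) and 1 higher (Atrip), against 7.5% and 5.47% of all tested genes. Without control replicate 3 the Mdm2 value was -0.12, and without control replicate 2 it was -0.34. The value of Trp53 itself was 0.00 (SE 0.0977, adjusted p = 0.998 in edgeR).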

How the data were processed

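RNA was measured in 6 libraries of mouse hippocampus, 3 per group. Poly(A) RNA (integrity number over 7) went into dUTP libraries that keep the strand and was read from both ends for 150 bases, per the labels' protocols. Per the submitters' processing notes, the authors used GRCm39 with HISAT2 2.2.1 and StringTie 2.1.6 after cutadapt 1.9, and also name edgeR and DESeq2; their settings, the annotation release and the strand setting were not given in the sources used here. Per the file headers, the deposited table pairs every gene in every library with an estimated count, already whole, and with FPKM scaled by the authors. The counts were tested as deposited, and rounding changed none. Counts of 4 and 8 are in excess (control replicate 1 holds 1091 genes with 4, but 606 with 3 and 422 with 5), so 1 read pair may add more than 1 to a count and the true depth is unknown.

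Libraries were grouped by the labels. The comparison used edgeR 4.0.16 (R 4.3.3) with filterByExpr (20946 genes kept), TMM factors, the quasi-likelihood F test and Benjamini-Hochberg adjustment over all tested genes; fold changes are knockdown over control. Exact permutation tests used log2(FPKM + 1). Alternatives were RLE factors, no filter, DESeq2 1.42.0, limma 3.58.1 on log2(FPKM + 1), a replicate block, counts divided by 4, a Y-linked covariate and leaving out libraries. The edgeR step was tested on simulated counts. The lowest chi-square per gene between 2 libraries was 19.1, so none was a copy of another.

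The members and lists were chosen with earlier results of these data known. Named genes are all members, the 2 genes with the smallest p of each other list where none was called, and the 5 most like Bcas2; Ppie, Ppil1, Crnkl1, Isy1, Snrnp200, Trp53, Cdkn1a and the Cdc5l copies were chosen after their values were seen. RefSeq windows of GRCm38.p6 supplied sequence only and no coordinates were converted.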

Additional observations from a re-analysis of the deposited data

How the results depend on the processing

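The Bcas2 fold change stayed below 0 and uncalled in all 16 settings, and so did the absence of calls among the 10 members and among the 50 other genes of the lists. Leaving out each library in turn gave Bcas2 values of -0.09 to -0.06. With a replicate block it was -0.07 (edgeR adjusted p = 0.939). The replicate numbers share no source in the labels, and same-numbered libraries correlated at -0.012, -0.052 and -0.099 in their deviations from the group means, so the numbers were not taken as pairs; the block gave 0 calls. Over all genes, calls numbered 0 in edgeR, 74 in DESeq2, 1 with counts divided by 4 and 1 with Y-linked counts as a covariate, and 0 to 6 over the fits that left out a library, the 6 being without control replicate 1; the cause was not tested. Of 320 fold changes under other settings, 8 turned sign, all uncalled and small. Cdc5l was at -0.0264 with the Y-linked covariate and at -0.0298 where only libraries lacking Y-linked counts were used. In both settings the group value rests on control replicate 1, a lone control that is assumed to vary like the others. Xab2 was at -0.0563 and -0.0596 in these settings. Leaving out 1 library at a time, Xab2 ran from -0.0215 to 0.0741, Plrg1 from -0.0041 to 0.1265 and Syf2 from -0.1221 to 0.0373. In the edgeR fit with all 6 libraries and no covariate the Bcas2 interval reached down to 85.5% of the control level; intervals were not computed for the other settings. A change within neurons alone cannot be told apart from the tissue total.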

Other observations

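Cdkn1a, the cell cycle inhibitor p21 and a transcriptional target of p53, stood out among the genes linked to the complex through a single library. It was at 1.96, 8.51 and 1.08 FPKM in knockdown replicates 1, 2 and 3, against 1.72, 1.64 and 2.11 FPKM in control replicates 1, 2 and 3. Knockdown replicate 1 lay inside the control range and knockdown replicate 3 below it, and the edgeR log2 fold change was 1.10 (SE 0.684, adjusted p = 0.823). Knockdown replicate 2 is also the library with the lowest Aqr and Syf2 and the highest Plrg1, Ctnnbl1 and Xab2. A link between these values and Cdkn1a was not tested. Rpa3, the small subunit of the RPA complex, was at 3.39, 3.41 and 2.65 FPKM in the knockdown libraries, against 2.83, 2.44 and 1.97 FPKM in the controls, with overlapping groups; edgeR put its log2 fold change at 0.40 (SE 0.225, adjusted p = 0.807). Genes of this paragraph were chosen after their values were seen.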
